A study of Mus musculus with 6 samples.

Results

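The genes described here encode the proteins that package pre-mRNA and splice it: the heterogeneous nuclear ribonucleoproteins (hnRNPs), the serine/arginine-rich (SR) splicing factors, the subunits of splicing factor 3 (SF3), and the small nuclear ribonucleoprotein (snRNP) core proteins. They were chosen by symbol, as every gene beginning with Hnrnp, Srsf, Sf3a, Sf3b or Snrp, with the imprinted Snrpn left out. This gave 51 of the 21958 protein-coding genes of the count table, of which 20 were hnRNP, 11 SR, 9 SF3 and 11 Snrp genes. All 51 passed the filter on low counts, which 12255 genes passed in all.

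RNA was sequenced from synaptoneurosomes, a filtered brain fraction enriched in pinched-off pre- and postsynaptic endings, prepared from hippocampus and adjacent cortex of FVB mice aged 6 to 8 weeks. In the polyribosome group, 3 libraries held RNA of the light and heavy polyribosomes from synaptoneurosomes given a 30 s pulse of NMDA (50 µM) with glutamate (10 µM), then the receptor antagonist APV (120 µM), and incubated for 20 min. In the total group, 3 libraries held all RNA of unstimulated synaptoneurosomes, which were kept on ice with cycloheximide. Tissue of several mice was pooled for each preparation and then divided, so 1 replicate is 1 pool. Stimulation and fraction changed together, and their effects cannot be told apart.

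Inside the nucleus, hnRNPs coat the nascent transcript, and SR proteins bind exons through RNA recognition motifs and recruit the splicing machinery with their arginine-serine tails. The snRNPs carry this machinery: 7 Sm proteins form a ring on most spliceosomal small nuclear RNAs, and SF3A and SF3B are parts of the U2 snRNP that hold the branch site. Many hnRNPs and SR proteins also shuttle to the cytoplasm, where some bind mRNAs that travel along dendrites and axons, and many of their genes limit their own output by splicing in an exon with an early stop codon, which sends the transcript to nonsense-mediated decay (NMD).

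Library totals were 5294482 to 7361580 counts on polyribosomes and 1044955 to 3738022 in total RNA, so the total group set the precision, and its replicate 3 most of all. The 51 genes took between 0.206% and 0.234% of the counts of a library. Levels below are CPM, counts per 1000000 of the library after scaling by TMM factors. The count-weighted GC content of the libraries was 50.6% to 51.5% on polyribosomes and 49.5% to 50.4% in total RNA. Summed CPM of 10 neuron markers ran from 13689 to 17063 on polyribosomes and from 12310 to 14319 in total RNA, and of 8 astrocyte markers from 40603 to 42842 and from 32094 to 36640. The 8 oligodendrocyte markers summed to 11293 to 15422 and 8141 to 11570 CPM, the 8 microglia markers to 939 to 1082 and 597 to 839, and the 8 endothelial markers to 347 to 606 and 371 to 386, in the same order. No marker was at 0 in a group, and all 8 astrocyte, all 8 oligodendrocyte and all 8 microglia markers had a positive log2 fold change. The same held for 7 of the 10 neuron markers, 6 of the 8 endothelial markers and 50.1% of all genes tested. The part of these glial transcripts and of GC content in the results below was not tested. In such bulk RNA, fewer endings of a cell type and less RNA per ending cannot be told apart.

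The families differed in direction. SR mRNAs lay mostly on the lower side on polyribosomes against total RNA, Snrp mRNAs mostly on the higher side, and hnRNP and SF3 mRNAs on both. The median log2 fold change of polyribosome over total RNA was -0.42 for the 11 SR genes, 0.08 for the 20 hnRNP genes, 0.26 for the 9 SF3 genes and 0.41 for the 11 Snrp genes, beside 0.00 for all genes tested. Of the SR genes 10 were on the lower side and 1 on the higher, and of the Snrp genes 1 was lower and 10 were higher, while 49.9% of all genes tested were lower and 50.1% higher. The hnRNP family was split into 7 lower and 13 higher and the SF3 family into 3 lower and 6 higher. These counts are of signs, not of calls.

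The sums over the SR and the Snrp genes moved the same way in every pair. The SR genes summed to 306.5, 292.7 and 307.8 CPM in polyribosome libraries 1 to 3 and to 388.9, 405.2 and 437.3 CPM in total libraries 1 to 3 (302 ± 8.39 against 410 ± 24.6, mean ± SD, n = 3 each). Each polyribosome library lay below each total library. The Snrp genes summed to 154.3, 164.2 and 224.6 CPM on polyribosomes and to 112.5, 122.9 and 170.7 CPM in total RNA (181 ± 38.1 against 135 ± 31.0, n = 3 each). These groups overlapped, because both libraries of replicate 3 were high, yet the polyribosome library was above its own total library in every pair. The hnRNP sums (1332 ± 106 against 1328 ± 74.1 CPM) and the SF3 sums (380 ± 20.8 against 376 ± 12.7 CPM, n = 3 each) differed by less than the spread between replicates.

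**Figure D1:**
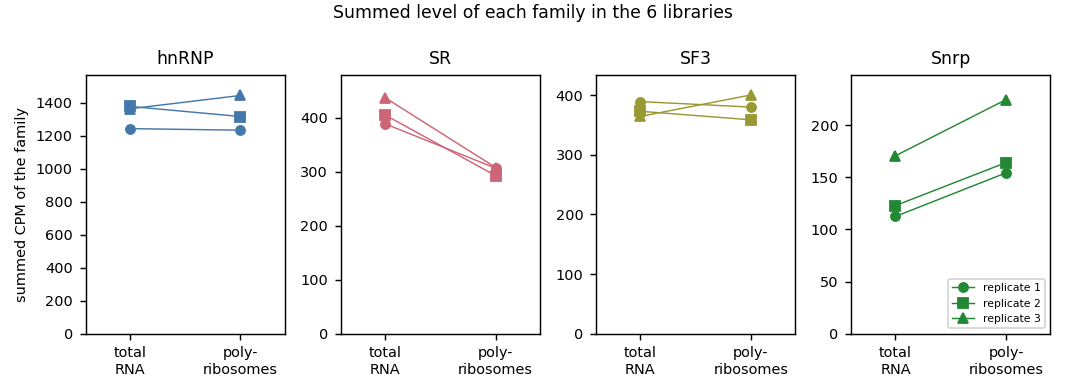
Summed level of the hnRNP, SR, SF3 and Snrp genes, in CPM (vertical axis, from 0), in the total and polyribosome libraries, with a line joining the libraries of each replicate number. All 3 SR lines go down, from 388.9 to 437.3 CPM to 292.7 to 307.8 CPM, all 3 Snrp lines go up, and the hnRNP and SF3 lines cross.

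A ratio of both families within 1 library does not depend on how that library was scaled. SR transcripts were 3.46, 3.30 and 2.56 times as abundant in summed CPM as Snrp transcripts in total libraries 1 to 3, and 1.99, 1.78 and 1.37 times in polyribosome libraries 1 to 3. The ratio was thus lower in every polyribosome library than in any total library. From total to polyribosome RNA it was multiplied by 0.574, 0.541 and 0.535 in pairs 1 to 3. The SR genes had a median GC content of 44.6% and a median exonic length of 2618 bases and the Snrp genes 47.7% and 1393 bases, beside 50.3% and 3610.5 bases for all genes tested. With the replicate number as a block and an offset for GC content and length, the medians were -0.36 for SR and 0.41 for Snrp genes.

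Gene by gene, few members passed the test that leaves out the pairing of replicates. With edgeR's quasi-likelihood test on group alone, at an adjusted p under 0.01, 2 members were lower on polyribosomes, Hnrnpu and Srsf11, and 0 were higher. Of all genes tested 2.36% were lower by this call and 0.71% higher. At an unadjusted p under 0.05, 11 members were lower and 6 higher (17.1% and 15.4% of all genes tested), and DESeq2 called 2 lower and 0 higher at its adjusted p under 0.01 (3.77% and 3.19% of the genes it gave an adjusted p). All 3 polyribosome libraries lay below all 3 total libraries for 9 members and above them for 7, and this held for 18.9% and 17.4% of all genes tested, so by this measure the 51 genes as a whole were close to the background. The families differed: the separated genes were 5 lower and 0 higher among SR genes, 0 lower and 4 higher among Snrp genes, 4 lower and 3 higher among hnRNP genes, and 0 among SF3 genes.

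The libraries of 1 replicate number came from 1 preparation and deviated together, and the fit with the replicate number as a block called more genes. It called 9 members lower (13.2% of all genes tested) and 3 higher (11.8%). The 9 were Hnrnpu, Hnrnpll, Hnrnpr, Hnrnph1, Hnrnpdl, Srsf11, Srsf6, Srsf10 and Srsf5, and the 3 were Hnrnpa0, Snrpd2 and Sf3a2. Adding the offset for GC content and length to the block gave 5 lower (6.76%), which were Hnrnpu, Hnrnpll, Srsf11, Srsf9 and Srsf2, and 4 higher (8.67%), which were Hnrnpa0, Hnrnpa3, Hnrnpk and Hnrnpm. Hnrnpu, Hnrnpll, Srsf11 and Hnrnpa0 were called in both blocked fits.

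**Figure D2:**
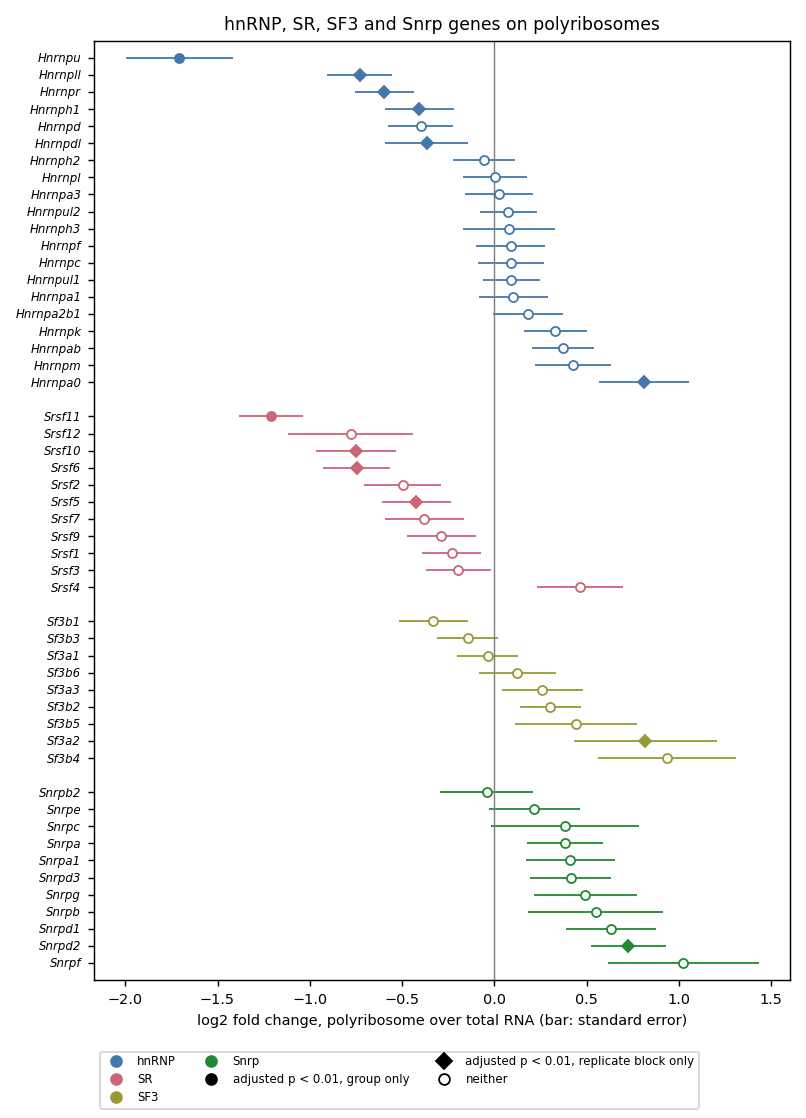
The log2 fold change of polyribosome over total RNA (horizontal axis) of all 51 genes with its standard error, from the edgeR fit on group alone, by family. Filled circles (Hnrnpu and Srsf11) passed an adjusted p of 0.01 in that fit, diamonds passed in the replicate block fit only, and open circles in neither; 10 of 11 SR genes lie left of 0 and 10 of 11 Snrp genes right of it.

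Among the hnRNP genes, Hnrnpu stood farthest from 0. It encodes a large nuclear matrix protein, also called scaffold attachment factor A, which binds chromatin-associated RNA. Its level was 28.7, 22.1 and 10.7 CPM in polyribosome libraries 1 to 3 and 71.8, 82.7 and 44.1 CPM in total libraries 1 to 3. The polyribosome level was 31.0% of the total level, and the highest polyribosome library lay below the lowest total library. This was a log2 fold change of -1.71 (SE 0.29, edgeR adjusted p = 0.0035) and was -1.21 in the block with the GC and length offset. The call was lost without polyribosome replicate 2 (edgeR adjusted p = 0.0142), total replicate 1 (0.0139) or total replicate 2 (0.0299), at log2 fold changes of -1.75, -1.67 and -1.53. Hnrnpu lies at chr1:178324343-178337797 on the minus strand (GRCm38), and the table also lists Gm28062 at chr1:178323074-178337728 over nearly all of it, with 0 counts in all 6 libraries, so how shared reads were assigned bears on this gene. The other U-like genes, Hnrnpul1 and Hnrnpul2, had log2 fold changes of 0.09 and 0.07 (SE 0.15 each).

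The next lowest was Hnrnpll, a paralog of Hnrnpl known as a splicing regulator of lymphocytes. It had 26.6, 22.9 and 23.3 CPM on polyribosomes and 44.0, 39.2 and 36.4 CPM in total RNA. The groups did not overlap, and the log2 fold change was -0.73 (SE 0.18, edgeR adjusted p = 0.0165 on group alone and 4.01e-05 in the block). Hnrnpl itself, at 113 to 132 CPM on polyribosomes and 101 to 145 CPM in total RNA, had a log2 fold change of 0.00 (SE 0.17). The paralogs thus differed in position: 1 was separated between the groups and the other overlapped throughout.

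Hnrnpr, which encodes a protein found with actin mRNA in motor axons, showed close replicates. Its level was 42.7, 38.1 and 41.4 CPM on polyribosomes and 61.1, 61.0 and 63.3 CPM in total RNA. The groups were well apart, with a log2 fold change of -0.60 (SE 0.16, edgeR adjusted p = 0.0257 on group alone and 0.000178 in the block). This did not survive the offset: with GC content and length it was 0.01, and -0.01 with the block as well. The annotated exons of Hnrnpr cover 21483 bases, beside a median of 3610.5 for all genes tested, and its longest transcript has a GC content of 41.0%. How well the offset holds for so long a gene was not tested, nor was the part of length or GC content in the change. Hnrnph1 (50.0 ± 9.65 against 66.2 ± 8.12 CPM) and Hnrnpdl (32.0 ± 10.3 against 41.8 ± 5.66 CPM, n = 3 each) were called in the block only, at -0.44 and -0.45.

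At the other end was Hnrnpa0, a small hnRNP that binds AU-rich elements. It had 51.0, 51.5 and 85.6 CPM on polyribosomes and 26.1, 42.2 and 41.2 CPM in total RNA. Polyribosome replicate 3 was the highest by far, but the other polyribosome libraries were also above all total libraries. Hnrnpa0 had a log2 fold change of 0.81 (SE 0.24, edgeR adjusted p = 0.0384 on group alone, 1.8e-05 in the block and 0.0025 with the offset as well). The other members of its subfamily had log2 fold changes on group alone of 0.18 (SE 0.19) for Hnrnpa2b1, 0.10 (SE 0.19) for Hnrnpa1 and 0.02 (SE 0.19) for Hnrnpa3. In the block with the offset these were 0.34 (edgeR adjusted p = 0.0187), 0.11 (0.551) and 0.51 (0.0010), beside 0.50 for Hnrnpa0 itself. Hnrnpa2b1, whose protein binds RNA transport signals, was the most abundant of the 51 genes per length, at 80.3 ± 16.1 CPM per kilobase of transcript in total RNA and 90.4 ± 14.9 on polyribosomes (SD, n = 3 each).

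Within the other hnRNP subfamilies the members did not share a direction. Hnrnpab, whose protein binds dendritic mRNAs, overlaps the gene Phykpl. It had 45.2, 51.4 and 46.5 CPM on polyribosomes and 37.0, 37.5 and 35.5 CPM in total RNA, with no overlap between the groups (0.37, SE 0.17, edgeR adjusted p = 0.136). Its paralogs Hnrnpd and Hnrnpdl had -0.40 (SE 0.18) and -0.37 (SE 0.22). Of the F/H genes, which bind G-rich runs, Hnrnph1 was at -0.41 (SE 0.19), and Hnrnpf, Hnrnph2 and Hnrnph3 lay between -0.05 and 0.09. Hnrnpk, a poly(C)-binding protein, had 162, 159 and 215 CPM on polyribosomes and 142, 141 and 143 CPM in total RNA, again without overlap (0.33, SE 0.17, edgeR adjusted p = 0.197), and overlaps Rmi1. Hnrnpm was at 0.42 (SE 0.21), with overlapping groups, and overlaps March2.

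**Figure D3:**
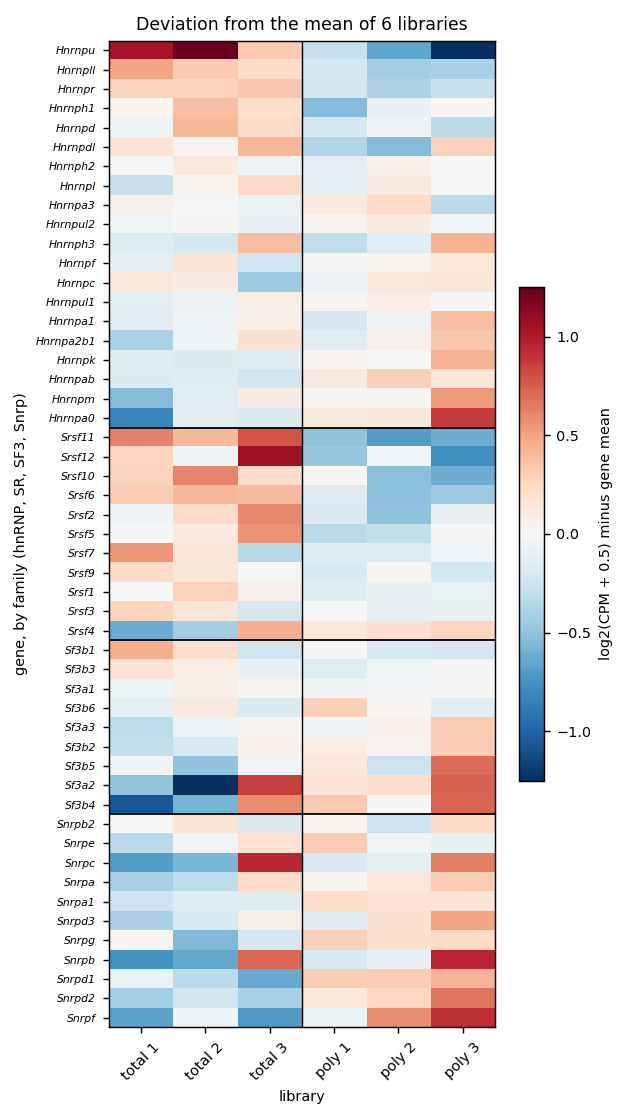
Each gene's level in each of the 6 libraries, as log2(CPM + 0.5) minus its mean over the libraries, for the hnRNP, SR, SF3 and Snrp genes from top to bottom, with total libraries left and polyribosome libraries right; red is above the gene's mean, blue below, and values past the scale take its end colour. The rows of Srsf11, Srsf6 and Srsf10 are above their means in all total libraries and those of Snrpd2 and Snrpa1 below, while total replicate 3 departs from the other total libraries in Sf3a2, Sf3b4, Snrpb, Snrpc, Srsf4 and Srsf7.

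The lowest SR gene was Srsf11, at chr3:158010473-158036639 on the minus strand, which encodes an atypical SR protein that takes part in the splicing of neuronal microexons. It had 27.6, 24.3 and 25.3 CPM on polyribosomes and 60.6, 52.2 and 68.1 CPM in total RNA. The polyribosome level was 42.7% of the total level, and the gap between the groups was wider than the spread in either. On the log2 scale the difference was -1.21 (SE 0.17, edgeR adjusted p = 0.0016) and -1.01 in the block with the offset. Without polyribosome replicate 2 or total replicate 2 the edgeR adjusted p was 0.0123 and 0.0103, at -1.17 and -1.31. Srsf11 overlaps no other annotated gene.

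Srsf6 and Srsf10 came next among SR genes with enough counts. Srsf6, a classical SR protein, had 23.3, 18.1 and 18.9 CPM on polyribosomes and 32.5, 34.8 and 34.5 CPM in total RNA (-0.75, SE 0.18, edgeR adjusted p = 0.0178 on group alone and 7.81e-05 in the block). Srsf10, which acts as a splicing repressor when dephosphorylated, had 24.1, 16.3 and 15.2 CPM on polyribosomes and 28.8, 36.5 and 27.8 CPM in total RNA (-0.75, SE 0.22, edgeR adjusted p = 0.0329 and 0.000222). Neither overlapped between the groups, and with the block and the offset together they were at -0.44 and -0.30 and past the threshold no longer (edgeR adjusted p = 0.0193 and 0.142). Srsf12, the paralog of Srsf10, had few reads, with 2.88 to 5.12 CPM against 5.02 to 11.5 CPM, and overlapped between the groups (-0.78, SE 0.34).

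Most other SR genes were lower by less. Srsf5, the most abundant per length of the family, had 46.5, 47.7 and 58.3 CPM on polyribosomes and 57.9, 64.0 and 87.3 CPM in total RNA. Polyribosome replicate 3 lay just above total replicate 1, so the groups overlapped, and it was called in the block (-0.43, edgeR adjusted p = 0.0061). Srsf2 (-0.50, SE 0.21), Srsf7 (-0.38, SE 0.21), Srsf9 (-0.29, SE 0.19), Srsf1 (-0.23, SE 0.16) and Srsf3 (-0.20, SE 0.18) did not pass on group alone. Srsf2 overlaps Mettl23 and Mfsd11. In polyribosome libraries 1 to 3 Mfsd11 had 243, 186 and 150 counts, beside 150, 108 and 105 for Srsf2. Srsf1 and Srsf3, which also serve as mRNA export adaptors, changed sign with the offset for GC content and length, to 0.24 and 0.15.

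Srsf4 was the only SR gene with a positive fold change in the fit on group alone. It had 29.9, 31.8 and 32.9 CPM on polyribosomes and 17.6, 20.1 and 37.4 CPM in total RNA. Pairs 1 and 2 were higher on polyribosomes and pair 3 was not, since total replicate 3 was the highest library of all. Srsf4 had a log2 fold change of 0.46 (SE 0.24, edgeR adjusted p = 0.188), and 0.71 (edgeR adjusted p = 0.0092) without both libraries of replicate 3, a choice made after seeing the data. Its closest relatives Srsf5 and Srsf6 thus lay on the other side of 0.

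Of the 9 SF3 genes 0 passed edgeR's test on group alone, beside 2.36% of all genes tested called lower and 0.71% higher. At an unadjusted p under 0.05, 0 were lower and 1 higher (17.1% and 15.4% of all genes tested). Of the SF3 genes 0 were separated between the groups (18.9% lower and 17.4% higher of all genes tested). Sf3b1, the large subunit that clasps the branch site, had 120, 107 and 106 CPM on polyribosomes and 168, 142 and 103 CPM in total RNA (-0.33, SE 0.19, edgeR adjusted p = 0.232), lower in pairs 1 and 2 and level in pair 3. With the offset it was at 0.09. Sf3b3 and Sf3a1 lay at -0.15 and -0.04, and Sf3b2, the most abundant of the family per length at 33.4 ± 4.24 CPM per kilobase of transcript in total RNA (SD, n = 3), at 0.30 (SE 0.17). The highest values belonged to genes with few reads: Sf3b4, at 7.98, 6.33 and 10.7 CPM against 2.73, 4.02 and 9.59 CPM, had 0.94 (SE 0.37, edgeR adjusted p = 0.0983). Sf3a2, called in the block, had 10.6, 10.8 and 15.9 CPM against 6.46, 3.01 and 17.3 CPM, so pair 3 went the other way, and total replicate 2 rested on 9 counts. Sf3a2 overlaps Plekhj1, which had 83, 63 and 71 counts in polyribosome libraries 1 to 3, beside 78, 72 and 77 for Sf3a2.

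None of the 11 Snrp genes passed edgeR's test on group alone, beside 2.36% of all genes tested called lower and 0.71% higher. At an unadjusted p under 0.05, 0 were lower and 3 higher (17.1% and 15.4% of all genes tested). The Sm proteins that form the ring were all on the higher side. The median log2 fold change of the 7 genes was 0.55, from 0.22 for Snrpe to 1.02 for Snrpf, and each kept its sign under every other scaling except Snrpb, at -0.0069 in the block with the GC and length offset. Snrpe was higher in pair 1 only, with log2 differences of 0.66, -0.00070 and -0.27 in pairs 1 to 3. Snrpd2 had 29.5, 32.2 and 43.0 CPM on polyribosomes and 19.9, 22.8 and 20.1 CPM in total RNA. Its groups did not overlap, with a log2 fold change of 0.73 (SE 0.20, edgeR adjusted p = 0.029 on group alone, 0.000615 in the block and 0.0289 in the block with the offset). Snrpd1 (9.60, 9.64 and 10.5 against 7.20, 6.03 and 4.79 CPM) and Snrpg (7.03, 6.48 and 6.79 against 5.71, 3.68 and 4.79 CPM) were separated as well, at 0.63 (SE 0.24) and 0.49 (SE 0.28), but were counted only 5 times each in total replicate 3. Snrpf rested on 8, 10 and 2 counts in total libraries 1 to 3, and overlaps Ccdc38.

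Snrpb, which encodes the Sm proteins B and B′, showed a replicate effect larger than the group difference. It had 25.7, 27.4 and 57.4 CPM on polyribosomes and 17.4, 18.8 and 48.9 CPM in total RNA. Replicate 3 was far above replicates 1 and 2 in both fractions, and the log2 fold change was 0.55 (SE 0.37, edgeR adjusted p = 0.32). Within pairs 1 to 3 Snrpb was higher on polyribosomes each time, by 0.55, 0.54 and 0.23 on the log2 scale. In the block it was at 0.45 (SE 0.16, edgeR adjusted p = 0.0162), and at -0.0069 with the offset as well. The proteins of single snRNPs were less uniform. Snrpa and Snrpc of U1 had 0.38 each (SE 0.21 and 0.40). Snrpa1 of U2 had 8.79, 8.59 and 8.44 CPM against 6.21, 6.70 and 6.71 CPM without overlap (0.41, SE 0.24, edgeR adjusted p = 0.255 on group alone and 0.191 in the block). Snrpa1 rested on 25, 20 and 7 counts in total libraries 1 to 3. Its partner Snrpb2 was at -0.04 (SE 0.25).

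Other splicing genes, taken from lists that did not use the symbols above, were read against the families. These lists too were chosen with earlier results of these data known, so they are no independent check. Of all genes tested, 2.36% were called lower and 0.71% higher on group alone, and 13.2% and 11.8% in the block. In the block with the offset these shares were 6.76% and 8.67%. SR-related proteins, which carry arginine-serine repeats without the SR protein layout, resembled the SR genes: 11 of 13 were lower and 2 higher, with a median of -0.45 and with 3 called lower and 0 higher on group alone (7 and 0 in the block). The 3 were Srek1 at -1.22 (SE 0.19), Luc7l3 at -1.16 (SE 0.19) and Luc7l2 at -1.03 (SE 0.16), named because they were called, and the highest was Rnps1 at 0.46 (SE 0.24). Of the 6 kinases that phosphorylate SR proteins 5 were lower, with a median of -0.52 and 2 called on group alone (4 in the block), Clk4 at -1.62 (SE 0.19) and Clk1 at -1.35 (SE 0.23), while Clk3 was at 0.14 (SE 0.22). The list called neuronal splicing regulators had 19 genes lower and 3 higher of the 22 tested of 23, with a median of -0.39. In which cell types these genes were expressed was not tested. In pairs 1 to 3 the median was -0.14, -0.21 and -0.58, and in the block with the offset it was -0.19, with 4 called lower and 1 higher. They had 2 called lower on group alone (8 in the block), Khdrbs2 at -1.48 (SE 0.25) and Elavl2 at -1.03 (SE 0.18), and reached 0.17 (SE 0.17) in Elavl3.

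The lists of the spliceosome body were mixed in direction. The shares of all genes called are those given above, and 17.1% were lower and 15.4% higher at an unadjusted p under 0.05. The tri-snRNP and other snRNP proteins were 9 lower and 10 higher of 19, with a median of 0.05 (Snrnp48 at -1.10, Sart1 at 0.63), and 0 were called either way on group alone (1 at unadjusted p under 0.05 in each direction, and 1 in each in the block). The Lsm proteins are relatives of the Sm proteins that ring U6 RNA or, with Lsm1 in the ring, act in cytoplasmic mRNA decay. They were 3 lower and 3 higher of the 6 tested of 8, with a median of 0.01. Lsm1 was the lowest at -0.72, and Lsm4 was the highest at 1.38 and the 1 gene called in the block (edgeR adjusted p = 3.57e-05). The U2 auxiliary and associated proteins were 5 lower and 7 higher of 12 (median 0.19), with U2surp, at -0.96 (SE 0.18, edgeR adjusted p = 0.0055), called lower and U2af1l4 the highest at 0.90 (1 lower and 1 higher were called in the block). The Prp19 and catalytic step proteins were 11 lower and 8 higher of 19 (median -0.03, Dhx35 at -0.48 to Dhx16 at 0.36). The exon junction complex proteins were 1 lower and 4 higher of the 5 tested of 6 (median 0.20, Upf3b at -0.39 to Eif4a3 at 0.53). The hnRNP proteins named otherwise were 3 lower and 4 higher of 7 (median 0.12, Syncrip at -0.43 to Pcbp1 at 0.58). In none of these last 3 lists was a gene called on group alone by edgeR; at an unadjusted p under 0.05 they had 0, 0 and 1 lower and 0, 1 and 2 higher, and in the block Syncrip was called lower (edgeR adjusted p = 0.0097) and Pcbp1 higher (0.000509).

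**Figure D4:**
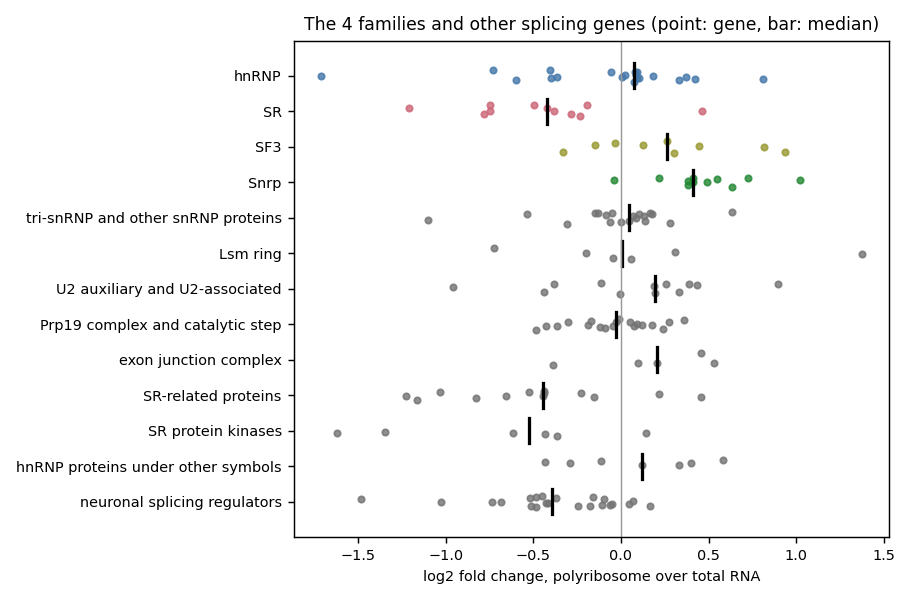
The log2 fold change of polyribosome over total RNA (horizontal axis) of each gene (point), with the median (bar), for the 4 families and 9 lists of other splicing genes. The medians of the SR genes (-0.42), the SR-related proteins (-0.45), the SR protein kinases (-0.52) and the neuronal splicing regulators (-0.39) lie left of 0, that of the Snrp genes (0.41) to the right, and those of the other lists between -0.03 and 0.26.

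The annotation lists transcripts with an early stop, marked as targets of NMD, for 24 of the 51 genes (47.1%), beside 28.3% of all genes tested. The share was 81.8% among SR genes (9 of 11), 50.0% among hnRNP genes (10 of 20), 36.4% among Snrp genes (4 of 11) and 11.1% among SF3 genes (1 of 9). In 10 of them the stop stood in an internal exon of 56 to 460 bases that no coding transcript of the gene overlaps, and 0 of these exons were part of the annotation's basic set, the kind on which the authors counted. The last 30 bases of the reading frame, up to the stop in this exon, are shown for 6 of these 10 genes. The stop codon ends 23 bases into the exon in Srsf11 and 28 in Srsf7. The first bases shown for these genes therefore come from the exon before. Hnrnpl, Sf3b1, Snrpa and Srsf9 are not shown, nor is a second such exon of Srsf11, at chr3:158023243-158023359. The capitals mark the early stop codon, the sequence is that of the spliced transcript (Gencode vM21, GRCm38), and the exon is chr3:158024123-158024231 (minus strand) in Srsf11, chr17:29039454-29039909 (plus) in Srsf3, chr17:80204622-80205081 (minus) in Srsf7, chr4:131884276-131884482 (plus) in Srsf4, chr17:80044940-80045022 (minus) in Hnrnpll and chr2:130176629-130176752 (minus) in Snrpb.
Srsf11: gctgaagttcttttccctggttcagccTGA
Srsf3: accatcatgtctcttctcaccaccctcTGA
Srsf7: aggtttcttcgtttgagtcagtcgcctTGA
Srsf4: gtaacccggttgtctcatgccccagctTAG
Hnrnpll: ctgaaacttcttgaaagaagcccacttTGA
Snrpb: tggcctcattacctatttgtaaagctgTAG

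The genes with an annotated NMD transcript had a median log2 fold change of -0.26, with 14 of 24 lower, and those without had 0.26, with 20 of 27 higher. Over all genes tested the medians were -0.10 (2013 of 3465 lower) and 0.04. In the block with the GC and length offset the members with such a transcript were at -0.0083 and those without at 0.24. The median of the first group thus lost most of its lower side but stayed below that of the second. Both genes called lower on group alone, and 7 of the 9 called lower in the block, had such a transcript, as did 46.4% and 38.7% of all genes called lower in these fits. In the block with the offset all 5 members called lower had such a transcript, as did 352 of the 827 of all genes called lower. Of the 4 members called higher in that fit 1 had such a transcript. Within families the order was not the same: among hnRNP genes the medians were -0.18 with and 0.09 without, among Snrp genes 0.40 with and 0.49 without, and among SR genes -0.38 with and -0.76 without, where the latter were Srsf10 and Srsf12 alone. With the block and the offset the same medians were 0.02 and 0.34 for hnRNP genes, which turned the sign of the first, 0.13 and 0.43 for Snrp genes, and -0.36 and -0.44 for SR genes. Of the 6 genes shown, Srsf11, Hnrnpll, Srsf7 and Srsf3 had negative and Srsf4 and Snrpb positive fold changes. Over all 10 genes with such a stop exon 6 were lower and 4 higher. Their median was -0.24, and -0.086 in the block with the offset. Counts per gene hold no isoform, so the share of transcripts with these exons was not measured here.

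**Figure D5:**
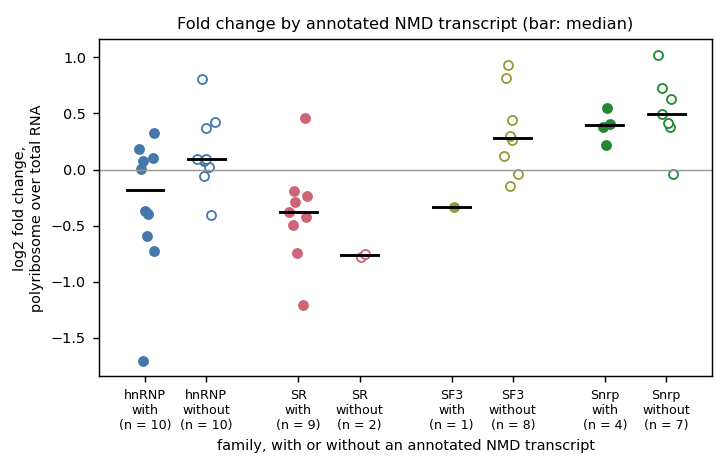
The log2 fold change of polyribosome over total RNA (vertical axis) of each of the 51 genes (point), by family and by whether the annotation lists an NMD transcript (filled) or not (open), with the median as a bar and the number of genes under each column, from the fit on group alone. The median with such a transcript lies below the median without it in hnRNP (-0.18 against 0.09) and Snrp genes (0.40 against 0.49), and above it in SR genes (-0.38 against -0.76).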

How the data were processed

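Synaptoneurosomal RNA of 6 libraries was depleted of ribosomal RNA. The methods call the libraries strand-specific, and the labels name TruSeq RNA kit v2. Per the submitters' notes and methods, the authors mapped reads with STAR 2.5.2b to GRCm38 (mm10) and deposited raw counts per protein-coding gene on the Gencode vM6 basic set; the notes also list CASAVA 1.8.2, HTSeq, BEDTools and SAMtools. The strand setting of the counting is not given in the sources used here, which leaves the 21 members that overlap another gene uncertain. The table's DESeq2 comparison columns were not used.

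Counts were fitted in R 4.3.3 with edgeR 4.0.16 (filterByExpr, TMM, quasi-likelihood test, group only, 12255 genes, Benjamini-Hochberg adjustment, threshold 0.01). Alternatives were DESeq2 1.42.0, other scalings and filters, the replicate number as a block, with and without a spline offset on GC content and exonic length (Gencode vM21, 99.9% of genes), a threshold of 0.05, genes overlapping no other, and leaving out libraries. GC content was taken from a gene's longest transcript of the basic set, and exonic length from all its exons in that set. Replicates differed beyond sampling noise (chi-square per degree of freedom from 3.49 to 21.4). Same-numbered libraries came from 1 divided preparation, share a header label, and their deviations correlated across genes at 0.37, 0.26 and 0.38, so the numbers pair the samples. The fitting procedure was tested on simulated counts with a fixed dispersion and no replicate effect, in which only genes above a set level were changed. That test does not measure how reliable the calls are in these libraries.

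Members, gene lists and tests were chosen with earlier results of these data known. Named genes are those called on group alone, the 2 lowest and 2 highest of each family, members of the subfamilies, and the ends of each list; Hnrnpr, Hnrnpk, Srsf2, Luc7l3, Luc7l2, Clk1, Elavl2 and Hnrnpc were named after their values were seen.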

Additional observations from a re-analysis of the deposited data

How the results depend on the processing

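The libraries were unequal in depth: total replicate 3 had 1044955 counts, and 7 of the members had fewer than 10 counts in some library. SR and Snrp medians kept their direction under every alternative tried, and DESeq2 and RLE factors changed no sign or call among the members. Hnrnpu and Srsf11 stayed called in both blocked fits.

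Members called lower numbered 9 with the replicate block (13.2%), 5 with the block and the GC and length offset (6.76%), 5 without both libraries of replicate 3 (an alternative added after seeing the data; 5.25% of all genes tested), 6 at an adjusted p under 0.05 (8.85%) and 1 among members overlapping no other gene (2.18%), and leaving out 1 library gave 0 to 2 (0.173% to 1.70%). Members called higher numbered 3, 4, 1 and 2 in the first 4 of these (11.8%, 8.67%, 3.61% and 6.52% of all genes), 1 with no filter (2.84% of all genes), and 0 whichever single library was left out. Median log2 fold changes with total counts only, where the median of all genes was -0.11, were -0.036 for hnRNP, 0.15 for SF3 and 0.30 for Snrp genes. The SF3 median was 0.14 with at least 10 counts in every library, 0.15 with the block and the offset, and 0.13 among members overlapping no other gene, where SR and Snrp were at -0.58 and 0.49. The hnRNP median was 0.18 with the offset and 0.12 with the block and the offset. Leaving out 1 library, or both of replicate 3 (-0.023 for hnRNP and 0.48 for Snrp), gave -0.023 to 0.085 for hnRNP, -0.56 to -0.36 for SR, 0.12 to 0.33 for SF3 and 0.27 to 0.54 for Snrp genes.

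The log2 fold change changed sign for 19 genes under some alternative. Upper-quartile factors gave -0.0096 for Hnrnpl. Total counts only gave -0.078 for Hnrnpa3, -0.023 for Hnrnpf, -0.013 for Hnrnpul1, -0.098 for Hnrnpl, -0.042 for Hnrnph3, -0.021 for Hnrnpc, -0.011 for Hnrnpa1 and -0.030 for Hnrnpul2. The block gave -0.017 for Hnrnph3. The offset gave 0.091 for Sf3b1, 0.30 for Snrpb2, 0.0054 for Hnrnpr, 0.049 for Hnrnpd, -0.0024 for Hnrnpul1, -0.035 for Snrpa, -0.18 for Hnrnpl, 0.056 for Sf3a1, 0.24 for Srsf1, 0.15 for Srsf3 and 0.36 for Hnrnph2. The block with the offset gave 0.078 for Sf3b1, -0.0069 for Snrpb, 0.22 for Snrpb2, 0.054 for Hnrnpd, -0.030 for Snrpa, -0.16 for Hnrnpl, 0.048 for Sf3a1, 0.20 for Srsf1, 0.12 for Srsf3 and 0.32 for Hnrnph2. Without both libraries of replicate 3 the values were -0.0066 for Hnrnpf, -0.040 for Hnrnph3, -0.095 for Hnrnpc and -0.049 for Hnrnpa1. Leaving out 1 library or both of replicate 3 gave -0.091 to 0.17 for Hnrnpa3, -0.015 to 0.22 for Sf3b6, -0.20 to 0.093 for Snrpb2, -0.14 to 0.12 for Hnrnpl, -0.14 to 0.23 for Hnrnph3, -0.077 to 0.22 for Hnrnpa1, -0.095 to 0.18 for Hnrnpc and -0.0066 to 0.21 for Hnrnpf. The cause of these changes was not tested.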
